A study of Mus musculus with 12 samples.

Results

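Collagens are proteins of the extracellular matrix, and the 42 collagen genes described here were taken from 17097 genes named on a mouse expression array. A gene belonged to the set when its platform symbol had the form of a collagen chain (Col, a type number, a, a chain number). For each gene the probe set brightest on average over 12 arrays was kept, and the 42 genes were covered by 68 probe sets in all. The set held 11 chains of fibrillar collagens, 6 chains of the basement membrane collagen type IV and 25 other chains. A further 2 collagen genes in the RefSeq gene table, Col28a1 and Col6a6, were not analysed here.

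The study modelled tumour-associated macrophages in culture, with 4 groups of 3 arrays. The tumour cells were spheres of the mouse neuroblastoma line TT9423 grown over agar, to which bone marrow-derived macrophages of C57BL/6 mice were added. In-sphere macrophages, collected at 24 h and at 48 h, were released from the spheres by digestion with collagenase P, collagenase/dispase and DNase and carry the label CD11b+, a surface integrin of myeloid cells used for selection on magnetic columns. Outside macrophages, also collected at 24 h and at 48 h, came from those same cultures but had not entered the spheres. All groups therefore shared the host strain, the tumour line and the co-culture. The sources used here do not say if the outside macrophages were also digested with enzymes or selected for CD11b. The times used here are those of the sample titles, since a single protocol text, which speaks of 24 h of co-culture, is attached to the 48 h samples too. Each replicate was a separate experiment in which the cells of several wells were pooled, and only 1 tumour line was used, so the p-values measure the spread between such experiments.

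A collagen molecule is a triple helix of 3 chains, made in the endoplasmic reticulum as procollagen. Prolyl and lysyl residues are hydroxylated there, the chains fold with the help of chaperones, and after secretion proteases remove the propeptides and lysyl oxidases cross-link the product. Fibrillar collagens give tissues tensile strength, whereas type IV collagen forms the sheet-like network of basement membranes. In most tissues fibroblasts and related stromal cells are the main source of fibrillar collagen, and macrophages are better known for taking up and degrading it.

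Upstream sequences are shown for Col3a1 and Col8a1, a fibrillar and a network collagen whose transcripts were both higher in spheres at both times, because they differ in promoter motifs. The 250 bases before the RefSeq start are given on the gene's own strand of GRCm38.p6, with matches to TATAAA or GGGCGG on either strand in capitals. The Col3a1 window, chr1:45311288-45311537 on the plus strand, held 1 TATA box match. The Col8a1 window, chr16:57754738-57754987 on the minus strand, held 4 GC box matches.
Col3a1: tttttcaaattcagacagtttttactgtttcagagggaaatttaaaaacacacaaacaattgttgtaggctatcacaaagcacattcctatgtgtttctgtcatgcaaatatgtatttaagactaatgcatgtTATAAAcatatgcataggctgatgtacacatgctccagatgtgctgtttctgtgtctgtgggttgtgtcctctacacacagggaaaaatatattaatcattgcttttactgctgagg
Col8a1: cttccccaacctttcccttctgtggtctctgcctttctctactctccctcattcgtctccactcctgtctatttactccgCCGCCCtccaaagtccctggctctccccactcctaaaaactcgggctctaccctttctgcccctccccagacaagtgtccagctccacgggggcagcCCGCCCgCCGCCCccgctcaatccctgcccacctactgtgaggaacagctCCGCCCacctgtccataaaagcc
The RefSeq promoter table held 36 such windows for 33 of the 42 collagen genes. The GC box letters GGGCGG occurred in 21 of the 36 collagen windows (58.3%), against 32.7% of 32851 windows of all genes. TATAAA occurred in 5 of 36 (13.9%, against 12.4% of all windows), and CCAAT, also sought on both strands, in 13 of 36 (36.1%, against 33.8%). The starts of Col4a1 and Col4a2 lie 21 bases apart on opposite strands of chromosome 8, and those of Col4a5 and Col4a6 lie 1343 bases apart on opposite strands of the X chromosome. A match to these letters is a description of the window and not a binding site.

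Values are the authors' RMA-normalised log2 signals, and a probe set was read as above background on an array when it exceeded 2.77, the 40th percentile of all values. By this measure 16 of the 42 collagens were above background on all 12 arrays. They comprised 5 fibrillar chains (Col1a1, Col3a1, Col5a1, Col5a2 and Col27a1), the basement membrane chains Col4a1 and Col4a2, and 9 others (Col6a1, Col6a2, Col6a3, Col7a1, Col8a1, Col9a3, Col16a1, Col18a1 and Col20a1). At the other end, 8 collagens exceeded the level on 0 arrays: Col4a4, Col6a5, Col9a2, Col10a1, Col12a1, Col15a1, Col17a1 and Col22a1. Their values ran up to 2.73, for Col10a1. Col4a3 and Col8a2 exceeded it on 1 array each, and Col19a1, Col23a1 and Col24a1 on 2 arrays each. These 13 genes were not tested. The 29 collagens above background on at least 3 arrays were tested with 12488 genes in all, and comprised 10 fibrillar, 4 basement membrane and 15 other chains. Because probe sets differ in brightness for reasons of probe sequence, levels are compared between samples for each gene and not between genes.

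Some measures of whole arrays bear on these values. Arrays of the same group correlated at 0.982 to 0.994 over all probe sets, and in-sphere with outside arrays at 0.950 to 0.976. In-sphere replicate 3 at 48 h averaged 4.06 over all probe sets, lower than the 4.20 to 4.22 of the other 11 arrays. The 3′ to 5′ difference of the actin control probe sets, a sign of RNA quality, was 0.481 ± 0.127 in spheres at 24 h, against 0.285 ± 0.054 outside (SD, n = 3 each). At 48 h it was 0.405 ± 0.011 in spheres and 0.386 ± 0.013 outside (SD, n = 3 each). The part of RNA quality in the differences at 24 h was not tested.

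At 24 h RNA of the in-sphere samples gave a higher signal than that of the outside samples for 11 of the 29 tested collagens and a lower one for 1, Col1a1. The called share was 41.4%, against 29.4% of all genes tested (15.8% higher and 13.6% lower), and the median log2 difference over the tested collagens was 0.37, against -0.01 over all genes. It was 0.17 with the 5 genes that lay below background on every array of the lower group set to their bound (explained below for Col5a3), and the fibrillar median given next was then 0.27. Among fibrillar chains 3 of 10 were higher and 1 lower (median 0.38), among basement membrane chains 3 of 4 were higher (median 1.52), and among the others 5 of 15 were higher (median -0.05). A gene was called when its adjusted p in limma, over all genes tested, was under 0.05. Without in-sphere replicate 1 at 24 h, which gave the highest value of its group for 14 of the 16 collagens above background on all arrays, 10 collagens were higher and 0 lower.

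At 48 h 13 of the 29 tested collagens were higher in spheres and 4 lower, a called share of 58.6% against 37.5% of all genes tested (15.2% higher and 22.3% lower). The median log2 difference was 0.14 over the tested collagens, against -0.10 over all genes. That median over all genes depended on the scaling of the arrays, being -0.08 with median centring and -0.04 with quantile normalisation. Of the fibrillar chains 4 of 10 were higher and 2 lower (median 0.01), of the basement membrane chains 3 of 4 were higher (median 1.43), and of the others 6 of 15 were higher and 2 lower (median 0.12). All 12 collagens called at 24 h were called in that same direction at 48 h. The 5 called at 48 h and not at 24 h were Col1a2 and Col14a1, which were higher, and Col2a1, Col13a1 and Col26a1, which were lower. Of the 17 called at 48 h, 3 (Col5a3, Col13a1 and Col14a1) were above background only on in-sphere or only on outside arrays, so that they passed the filter through the side on which they were high. Without in-sphere replicate 3 at 48 h 13 were higher and 3 lower, and 2 were lower when in-sphere replicate 2 or outside replicate 3 at 48 h was left out.

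**Figure D1:**
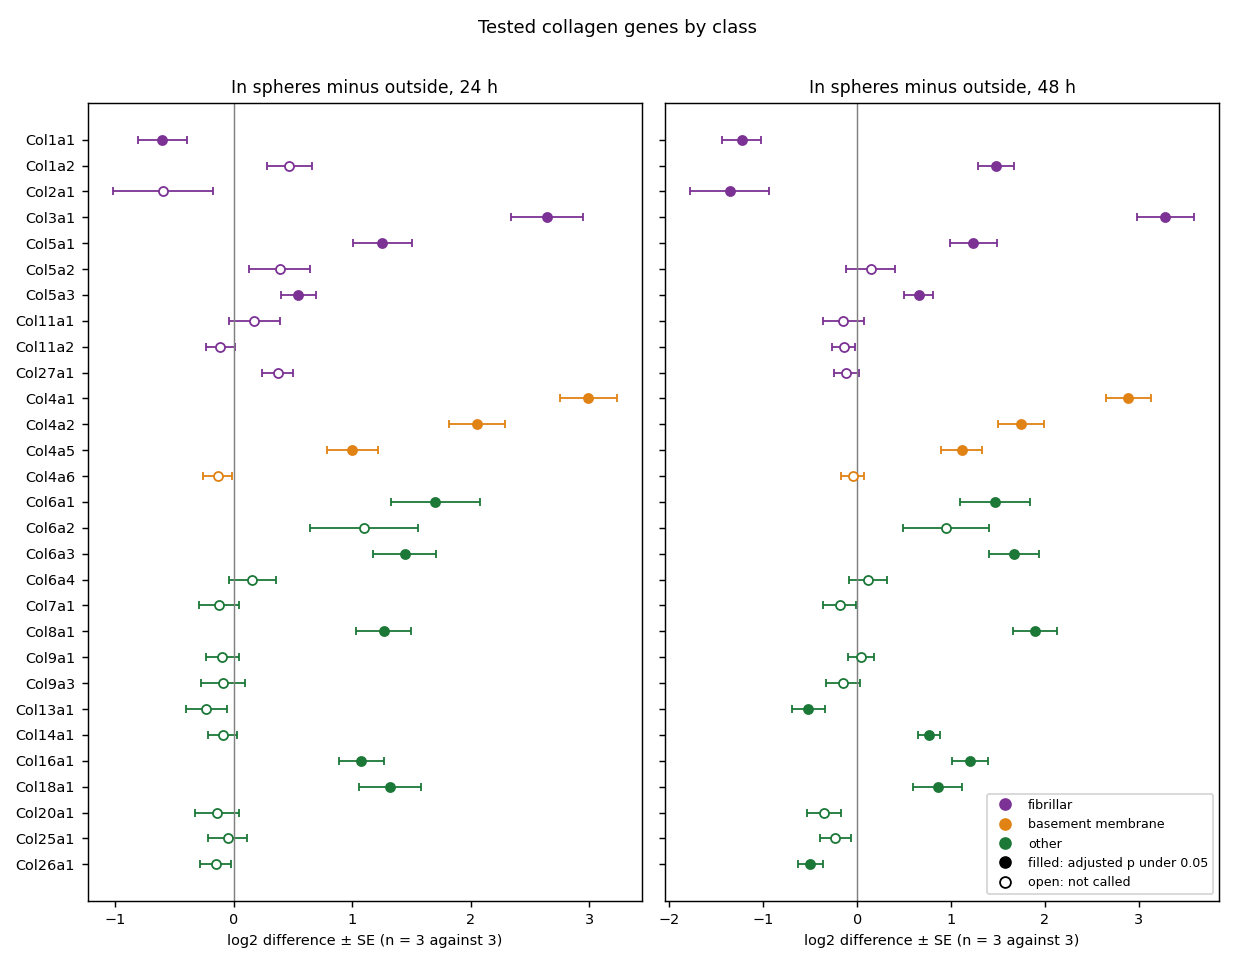
Log2 difference (in spheres minus outside) with its standard error for each of the 29 tested collagens, at 24 h (left) and 48 h (right), coloured by class, with 3 arrays against 3. Filled points were called in limma; Col4a1 and Col3a1 lie farthest to the right at both times, and Col1a1 and Col2a1 farthest to the left at 48 h.

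Type IV collagen came first among the classes in its median difference, a ranking that rests on its 4 tested chains. The medians cover tested chains alone, 10 fibrillar and 15 other. Several of these lay near background, where RMA compresses differences. Col4a1 and Col4a2 encode the chains of the common basement membrane network, and the values of 3 arrays are given here in the order of replicates 1, 2 and 3. Col4a1 had 9.08, 8.23 and 8.02 in spheres at 24 h, against 5.28, 5.86 and 5.22 outside, and 8.22, 8.18 and 8.18 in spheres at 48 h, against 5.21, 5.25 and 5.44 outside. Every in-sphere array exceeded every outside array, by more than 2 log2 units. The log2 difference was 2.99 ± 0.24 at 24 h (a 7.95-fold higher signal, adjusted p = 6.19e-06) and 2.89 ± 0.24 at 48 h (7.41-fold, adjusted p = 4.54e-06), where errors of differences are standard errors of the fit. Its second, dimmer probe set differed by 2.58 at both times.

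Col4a2 had 7.29, 6.91 and 6.27 in spheres at 24 h, against 4.63, 5.16 and 4.53 outside, and 6.75, 6.59 and 6.37 in spheres at 48 h, against 4.89, 4.63 and 4.96 outside. As for its partner Col4a1, replicate 1 was the highest in spheres at both times, and the in-sphere and outside values stayed apart. It differed by 2.05 ± 0.24 at 24 h (adjusted p = 7.39e-05) and by 1.75 ± 0.24 at 48 h (adjusted p = 0.000145). Col4a5, a chain of a further type IV network prominent in kidney glomeruli, had 4.02, 4.06 and 3.17 in spheres at 24 h, against 2.65, 2.69 and 2.92 outside, and 3.68, 3.98 and 3.75 in spheres at 48 h, against 2.45, 2.80 and 2.83 outside. All 6 in-sphere arrays were above background, while 3 of 6 outside arrays were. Col4a5 differed by 1.00 ± 0.21 at 24 h (adjusted p = 0.00407) and 1.11 ± 0.21 at 48 h (adjusted p = 0.00152). A second Col4a5 probe set differed by 0.52 at 24 h and 0.69 at 48 h. Its neighbour Col4a6 ranged from 2.50 to 2.97 over the 12 arrays, was at background on all arrays of 48 h and was called at neither time. Col4a3 and Col4a4, partners of Col4a5 in that network, were among the untested genes at background.

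Among fibrillar collagens, the type III chain Col3a1 and the type V chains Col5a1 and Col5a3 were called higher in spheres at both times, and the type I chain Col1a1 was called lower. Col3a1, the sole chain of type III collagen of extensible tissues, had 11.18, 10.80 and 10.35 in spheres at 24 h, against 7.63, 8.41 and 8.37 outside, and 10.80, 10.82 and 10.83 in spheres at 48 h, against 6.89, 7.52 and 8.18 outside. At 48 h in-sphere values lay within 0.1 of each other, whereas outside values spread over more than 1 log2 unit. The log2 difference was 2.64 ± 0.31 at 24 h (6.24-fold, adjusted p = 7.08e-05) and 3.28 ± 0.31 at 48 h (9.75-fold, adjusted p = 9.75e-06). A second Col3a1 probe set differed by 3.16 at 24 h and 3.02 at 48 h.

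Type V collagen starts fibrils and limits their width, and 2 of its 3 chains were called higher. Col5a1 had 8.07, 7.64 and 7.21 in spheres at 24 h, against 6.02, 6.37 and 6.77 outside, and 7.97, 7.91 and 8.04 in spheres at 48 h, against 6.37, 6.68 and 7.17 outside. The lowest in-sphere array was above the highest outside array at each time, and the difference was 1.25 ± 0.25 at 24 h (adjusted p = 0.00263) and 1.24 ± 0.25 at 48 h (adjusted p = 0.00208). Of its 2 further probe sets, one differed by 1.44 and 0.91 at 24 h and 48 h and the other by 0.18 and -0.05. Col5a2, whose gene neighbours Col3a1, had 8.61, 8.42 and 7.80 in spheres at 24 h, against 7.44, 8.18 and 8.06 outside, and 8.56, 8.51 and 8.66 in spheres at 48 h, against 7.93, 8.72 and 8.65 outside. Here the groups overlapped at both times, and the differences of 0.38 ± 0.26 (adjusted p = 0.309) and 0.14 ± 0.26 (adjusted p = 0.702) were not called.

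Col5a3, the least widely expressed of these 3 chains, had 3.51, 2.95 and 3.19 in spheres at 24 h, against 2.76, 2.68 and 2.59 outside, and 3.16, 3.51 and 3.38 in spheres at 48 h, against 2.76, 2.76 and 2.57 outside. It was above background on all 6 in-sphere arrays and on 0 of 6 outside, so it passed the filter through the in-sphere groups alone. For a gene below background in 1 group the fold is a bound, set against the background level of 2.77. Col5a3 was at least 1.36-fold higher in spheres at 24 h (adjusted p = 0.0159) and at least 1.49-fold higher at 48 h (adjusted p = 0.0046). With the mean over its 2 probe sets the calls were lost (adjusted p = 0.340 at 24 h and 0.160 at 48 h). The second probe set differed by -0.17 at 24 h and -0.14 at 48 h. At 24 h the call was also lost with array weights (adjusted p = 0.0631), with in-sphere replicate 1 left out (0.0626) and with outside replicate 3 left out (0.0572).

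Type I collagen, the main fibrillar collagen of bone, skin and tendon, is made of Col1a1 and Col1a2 chains, and the probe sets of these genes differed in opposite directions. Col1a1 had 4.44, 4.18 and 4.34 in spheres at 24 h, against 4.56, 5.499 and 4.71 outside, and 5.05, 5.02 and 5.07 in spheres at 48 h, against 6.10, 6.51 and 6.21 outside. At 24 h the gap between the highest in-sphere array and the lowest outside array was narrow, and at 48 h it exceeded 1 log2 unit. Col1a1 was lower by -0.60 ± 0.21 at 24 h (1.52-fold, adjusted p = 0.0452) and by -1.23 ± 0.21 at 48 h (2.34-fold, adjusted p = 0.000619). The call at 24 h was lost without in-sphere replicate 1, 2 or 3 at 24 h (adjusted p = 0.0669, 0.132 and 0.0839), without outside replicate 2 at 24 h (0.145), without in-sphere replicate 1 or 2 at 48 h (0.0569 and 0.0583) and without outside replicate 1 or 3 at 48 h (0.0531 and 0.0601). It was also lost with no filter on low values (0.0552), with a trended robust prior (0.0530) and with 24 h arrays alone in the fit (0.0997).

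Col1a2 had 2.83, 3.22 and 2.63 in spheres at 24 h, against 2.44, 2.30 and 2.55 outside, and 4.02, 4.39 and 4.38 in spheres at 48 h, against 2.41, 3.03 and 2.90 outside. The 3 in-sphere arrays of 48 h stood above all 9 other arrays. At 24 h, with 0 of 3 outside arrays above background, the difference was not called (adjusted p = 0.0882, and 0.0492 without in-sphere replicate 3 or 0.00762 with array weights). At 48 h it was 1.48 ± 0.19 (2.79-fold, adjusted p = 8.73e-05). Each of these genes rests on 1 named probe set, and that of Col1a2 lay near background in 3 of the 4 groups. Probe sets that the platform annotation does not name (15692 of 45141) were not used.

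Col2a1, the chain of cartilage collagen, had 2.45, 2.13 and 2.19 in spheres at 24 h, against 2.30, 3.20 and 3.07 outside, and 2.36, 2.36 and 3.45 in spheres at 48 h, against 3.26, 3.89 and 5.10 outside. In-sphere replicate 3 at 48 h overlapped the outside arrays, among which replicate 3 was far above the others. Col2a1 was lower by -1.36 ± 0.42 at 48 h (adjusted p = 0.0239), and it was not called at 24 h, when 0 of 3 in-sphere arrays were above background (adjusted p = 0.335). The call was lost without in-sphere replicate 1 (adjusted p = 0.0786) or 2 (0.0789), without outside replicate 3 (0.0955) and with 48 h arrays alone in the fit (0.0735). Col27a1, a fibrillar chain of cartilage, had 3.61, 3.56 and 3.55 in spheres at 24 h, against 2.97, 3.46 and 3.18 outside, and its difference of 0.37 ± 0.13 lay at the threshold without passing it (adjusted p = 0.05001). At 48 h Col27a1 differed by -0.11 ± 0.13 (adjusted p = 0.527). A second Col27a1 probe set, above background on all 12 arrays, differed by -0.02 at 24 h and -0.04 at 48 h. The 2 type XI chains Col11a1 and Col11a2 ranged from 2.26 to 3.56 and from 2.57 to 3.00 and were not called at either time.

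**Figure D2:**
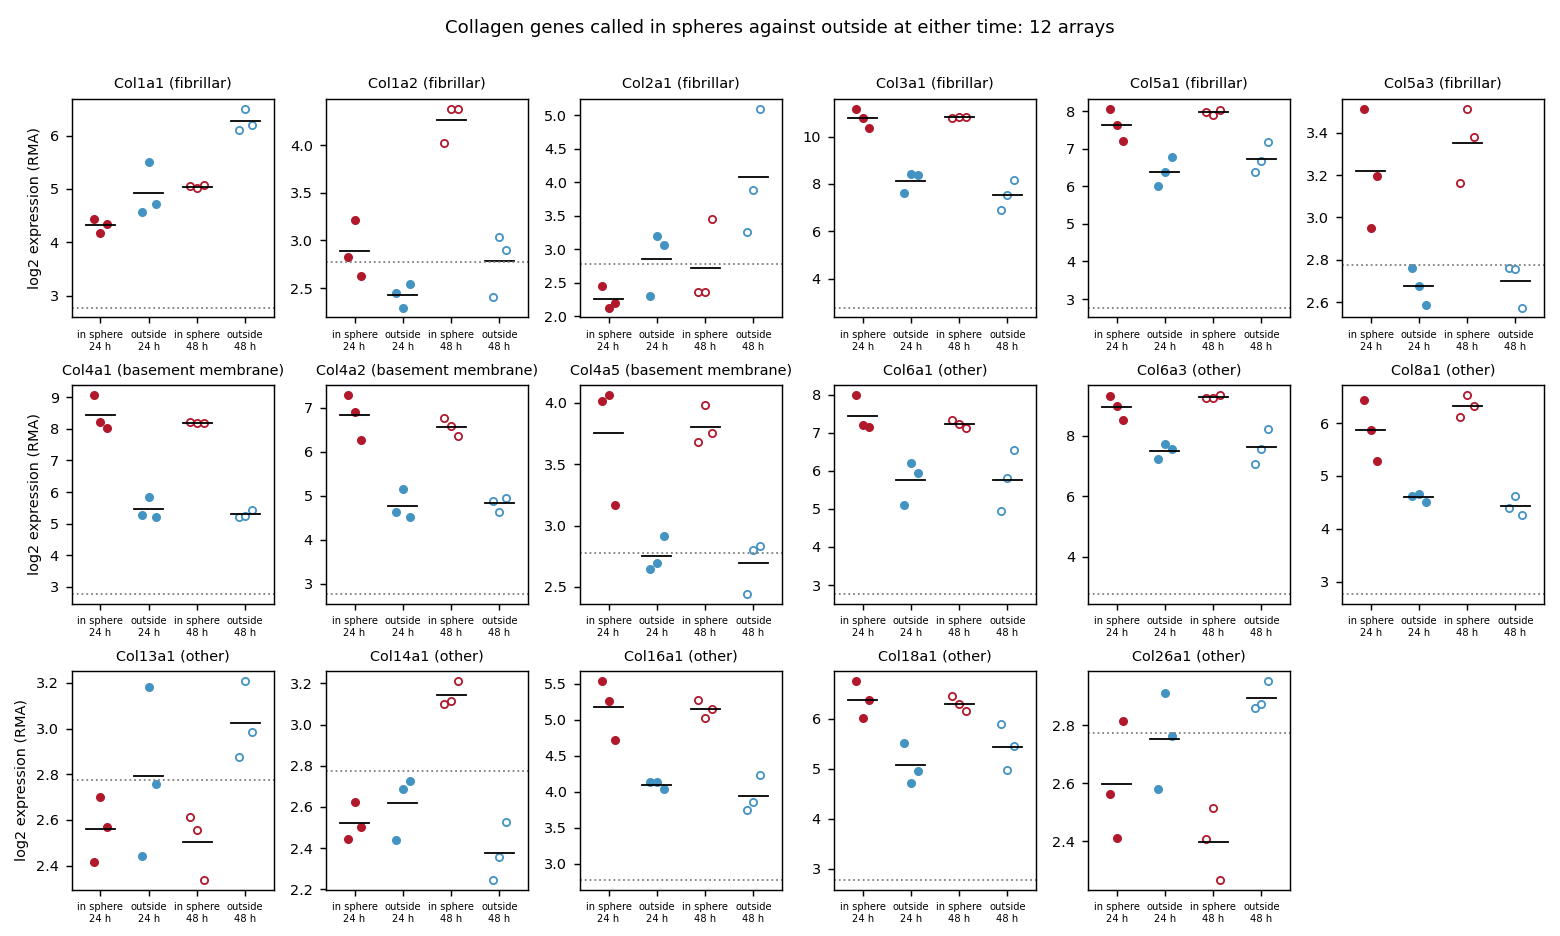
RMA log2 values of the 17 collagens called in spheres against outside at either time, with 1 point per array, in-sphere arrays in red and outside arrays in blue, 24 h filled and 48 h open, horizontal bars at group means and a dotted line at the background level of 2.77. Col3a1 and Col4a1 show separate in-sphere and outside groups at both times, Col1a1 is lower in spheres, and Col5a3, Col13a1, Col14a1 and Col26a1 lie near the background level.

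Type VI collagen forms beaded filaments between basement membrane and matrix, from Col6a1, Col6a2 and an alternative chain such as Col6a3. Col6a1 had 7.99, 7.21 and 7.14 in spheres at 24 h, against 5.09, 6.21 and 5.94 outside, and 7.33, 7.24 and 7.13 in spheres at 48 h, against 4.96, 5.81 and 6.53 outside. Replicate 1 was the lowest outside array at both times, and the in-sphere arrays lay above all outside arrays. Col6a1 differed by 1.70 ± 0.37 at 24 h (3.25-fold, adjusted p = 0.0047) and 1.47 ± 0.37 at 48 h (2.76-fold, adjusted p = 0.00857). Col6a3 had 9.33, 8.997 and 8.53 in spheres at 24 h, against 7.23, 7.73 and 7.57 outside, and 9.25, 9.27 and 9.36 in spheres at 48 h, against 7.06, 7.58 and 8.22 outside. Its groups were likewise apart, and it differed by 1.44 ± 0.27 at 24 h (adjusted p = 0.0016) and 1.67 ± 0.27 at 48 h (adjusted p = 0.00042).

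The third of these chains, Col6a2, had 7.91, 7.51 and 7.13 in spheres at 24 h, against 5.33, 6.77 and 7.16 outside, and 7.46, 7.41 and 7.38 in spheres at 48 h, against 5.57, 6.59 and 7.25 outside. Outside values spread over more than 1.5 log2 units, and at 24 h the groups overlapped. Its differences of 1.09 ± 0.45 (adjusted p = 0.0925) and 0.95 ± 0.45 (adjusted p = 0.124) were not called. Without outside replicate 3 of the same time they passed (adjusted p = 0.0428 at 24 h and 0.0466 at 48 h), and at 24 h also with array weights (0.0297). Col6a4 ranged from 2.27 to 3.19, above background on 4 arrays, and was not called.

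Among the remaining collagens, Col8a1, a chain of the short-chain network made by vascular cells, had 6.44, 5.87 and 5.28 in spheres at 24 h, against 4.62, 4.67 and 4.50 outside, and 6.12, 6.53 and 6.32 in spheres at 48 h, against 4.39, 4.63 and 4.26 outside. In-sphere arrays were above outside arrays throughout, with a difference of 1.26 ± 0.23 at 24 h (adjusted p = 0.00157) and 1.90 ± 0.23 at 48 h (adjusted p = 6.28e-05). A second probe set differed by 1.52 and 1.91 at these times, and the remaining one, above background on 1 array, by 0.09 and 0.00. Col16a1, a collagen associated with fibril surfaces (a FACIT collagen), had 5.54, 5.26 and 4.73 in spheres at 24 h, against 4.14, 4.13 and 4.03 outside, and 5.27, 5.03 and 5.15 in spheres at 48 h, against 3.74, 3.85 and 4.23 outside. It too was higher on every in-sphere array. Its difference was 1.07 ± 0.19 at 24 h (adjusted p = 0.00124) and 1.21 ± 0.19 at 48 h (adjusted p = 0.000396).

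Col18a1, a multiplexin found in basement membranes and the source of endostatin, had 6.75, 6.01 and 6.37 in spheres at 24 h, against 5.52, 4.72 and 4.95 outside, and 6.45, 6.29 and 6.16 in spheres at 48 h, against 5.89, 4.96 and 5.45 outside. Outside replicate 1 was the highest of its group at both times, and at 48 h it lay within 0.3 of the nearest in-sphere array. Col18a1 differed by 1.31 ± 0.26 at 24 h (2.49-fold, adjusted p = 0.00252) and by 0.86 ± 0.26 at 48 h (1.82-fold, adjusted p = 0.0208). At 48 h the call was lost with the mean over its 2 probe sets (adjusted p = 0.0566), the second of which differed by 0.38, and when in-sphere replicate 1 (0.0628) or outside replicate 2 (0.0931) or 3 (0.0504) was left out.

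Col14a1, a FACIT collagen that binds fibrils, had 2.44, 2.62 and 2.50 in spheres at 24 h, against 2.44, 2.69 and 2.73 outside, and 3.10, 3.11 and 3.21 in spheres at 48 h, against 2.25, 2.36 and 2.53 outside. The 3 in-sphere arrays of 48 h were the only ones above background, so the gene passed the filter through that group alone. At 48 h Col14a1 was at least 1.29-fold higher in spheres (adjusted p = 0.000365), and 2 further probe sets differed by 0.23 and 0.02. Col13a1, a transmembrane collagen, had 2.41, 2.70 and 2.57 in spheres at 24 h, against 2.44, 3.18 and 2.76 outside, and 2.61, 2.56 and 2.34 in spheres at 48 h, against 2.87, 3.21 and 2.99 outside. Its 4 arrays above background were all outside ones, 1 at 24 h and 3 at 48 h, so it passed the filter through the outside groups alone. Col13a1 was at least 1.19-fold lower in spheres at 48 h (adjusted p = 0.0353). That call was lost when in-sphere replicate 2 (adjusted p = 0.0607) or 3 (0.109) or outside replicate 2 (0.127) or 3 (0.0718) was left out. Col26a1 ranged from 2.27 to 2.95 over the 12 arrays and was at least 1.09-fold lower in spheres at 48 h (adjusted p = 0.0108).

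The tested collagens of this class not called at either time were Col6a2 and Col6a4, described above, with Col7a1, Col9a1, Col9a3, Col20a1 and Col25a1. Col7a1, the anchoring fibril collagen under epithelia, ranged from 3.04 to 3.86. The cartilage FACIT chains Col9a1 and Col9a3 ranged from 2.69 to 3.17 and from 2.78 to 3.55. Col20a1 ranged from 2.94 to 4.001, and the transmembrane chain Col25a1, first found in amyloid plaques, from 2.63 to 3.51. Col20a1 passed at 48 h without outside replicate 2 (adjusted p = 0.0431).

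Differences between 48 h and 24 h were tested within each compartment. Within spheres 0 of the 29 tested collagens and 0% of all genes tested passed limma's test. At an unadjusted p under 0.05 Col1a2, Col1a1 and Col14a1 were higher at 48 h and Col27a1 lower. The largest of these differences was that of Col1a2, whose 48 h values of 4.02, 4.39 and 4.38 stood against 2.83, 3.22 and 2.63 at 24 h, with no overlap. Col1a2 differed by 1.37 ± 0.19 (adjusted p = 0.0560), and it passed with replicate number as a block (adjusted p = 0.0253), as it did with array weights, no filter, the mean over probe sets, the trended robust prior, median centring or quantile normalisation. It passed as well without in-sphere replicate 2 at 24 h (0.0453) or outside replicate 1 at 48 h (0.0425), and over all alternatives its adjusted p ran from 0.0111 to 0.278. Within spheres Col1a1 differed by 0.72 ± 0.21 (adjusted p = 0.256). Col14a1, at background on all 3 in-sphere arrays of 24 h, was at least 1.29-fold higher at 48 h and not called (adjusted p = 0.116, and 0.0388 with array weights).

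Outside the spheres 1 collagen was called between times, against 0.336% of all genes tested. Col1a1 was higher at 48 h, with 6.10, 6.51 and 6.21, against 4.56, 5.499 and 4.71 at 24 h, a difference of 1.35 ± 0.21 (2.55-fold, adjusted p = 0.0203). All 3 later arrays exceeded all 3 earlier ones. The call was lost without outside replicate 1 or 3 at 24 h (adjusted p = 0.0528 and 0.0902), without outside replicate 1, 2 or 3 at 48 h (0.0819, 0.0556 and 0.0785) and with outside arrays alone in the fit (0.104). Col2a1, with a difference of 1.22 ± 0.42 (adjusted p = 0.281), and Col11a1, with 0.67, were past an unadjusted p of 0.05 and not called.

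Whether the in-sphere difference itself changed between 24 h and 48 h was tested as an interaction, and 0 of the 29 collagens and 0% of all genes tested passed. At an unadjusted p under 0.05 the difference was larger at 48 h for Col1a2 (adjusted p = 0.178) and Col14a1 (adjusted p = 0.107) and smaller for Col27a1. No size is given for Col1a2 and Col14a1, because 1 of the 4 groups lay at background for Col1a2 and 3 of 4 for Col14a1. With replicate number as a block Col14a1 passed (adjusted p = 0.0468), and that call rests on the 1 group in which it was above background. In the fit without the block, none of the 5 collagens called at 48 h and not at 24 h was shown to differ between times. The in-sphere and time comparisons share their arrays and are not independent of each other.

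Genes that act on collagen were read beside the chains themselves. Over all genes tested 15.8% were called higher and 13.6% lower at 24 h, and 15.2% higher and 22.3% lower at 48 h, and the counts of every list below stand beside these shares. In the list for chain modification and folding 8 of 15 tested genes were higher in spheres and 1 lower at 24 h (53.3% and 6.67%, median difference 0.77), and 5 were higher and 2 lower at 48 h (33.3% and 13.3%, median 0.11). Plod2, a lysyl hydroxylase of the helix ends, was higher by 3.36 ± 0.23 at 24 h and 2.97 ± 0.23 at 48 h (adjusted p = 2.06e-06 and 2.38e-06). P4ha2, a catalytic subunit of prolyl 4-hydroxylase, was higher by 2.54 ± 0.23 and 2.36 ± 0.23 (adjusted p = 1.32e-05 and 1.47e-05), and P4hb, its partner subunit, by 1.14 ± 0.10 and 1.01 ± 0.10 (1.32e-05 and 2e-05). Plod1, a lysyl hydroxylase of the helix, was higher by 1.06 ± 0.20 at 24 h (adjusted p = 0.00203) and 0.61 ± 0.20 at 48 h (0.0323). Its call at 48 h was lost with the mean over probe sets (0.315) and when a 48 h array was left out, for replicates 1 and 2 in spheres (0.0993 and 0.0532) and each of the 3 outside (0.0739, 0.0865 and 0.0631). Ppib, a prolyl isomerase that aids helix folding, was higher by 0.45 ± 0.10 and 0.60 ± 0.10 (0.00425 and 0.000491). Crtap, a subunit of the prolyl 3-hydroxylase complex, was higher at 24 h by 1.01 ± 0.16 (adjusted p = 0.000546) and differed by 0.11 ± 0.16 at 48 h (0.616). The collagen chaperone Serpinh1 differed by 0.77 ± 0.31 at 24 h (adjusted p = 0.0842) and 0.34 ± 0.31 at 48 h (0.425). Tmem38b, an endoplasmic reticulum cation channel, was lower by -1.15 ± 0.27 and -1.33 ± 0.27 (adjusted p = 0.00665 and 0.00206). At 48 h Creb3l1, a transcription factor of collagen secretion, was also lower (-0.51 ± 0.17, adjusted p = 0.0350). Its call was lost without in-sphere replicate 1, 2 or 3 (0.0674, 0.0599 and 0.0860) or either of outside replicates 2 and 3 (0.0938 and 0.137) at 48 h. It was also lost with the trended robust prior (0.0561) and with quantile normalisation (0.104). Each of these losses leaves 1 lower gene.

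Of 8 tested genes for propeptide cleavage and cross-linking, 3 were higher in spheres at both times (37.5%) and 1 was lower at 24 h (12.5%). Loxl1, a lysyl oxidase-like cross-linking enzyme, was higher by 2.99 ± 0.36 at 24 h and 2.92 ± 0.36 at 48 h (adjusted p = 8.89e-05 and 6.35e-05). Loxl2 of that family was higher by 1.23 ± 0.18 and 1.53 ± 0.18 (0.000302 and 3.96e-05), and Pcolce, an enhancer of C-propeptide cleavage, by 1.47 ± 0.35 and 1.44 ± 0.35 (0.00692 and 0.0062). The related enhancer Pcolce2 was lower at 24 h (-0.94 ± 0.24, adjusted p = 0.0106), and Lox differed by 0.80 ± 0.35 at 24 h and -0.10 ± 0.35 at 48 h without a call (0.112 and 0.858).

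Among 10 tested collagen receptors and uptake genes 5 were higher and 1 lower at 24 h (50% and 10%), and 4 were higher and 1 lower at 48 h (40% and 10%). Ddr2, a receptor tyrosine kinase for fibrillar collagen, was higher by 1.55 ± 0.26 and 1.46 ± 0.26 (adjusted p = 0.0009 and 0.000925), and Itgb1, the integrin subunit common to collagen-binding integrins, by 0.92 ± 0.12 and 0.67 ± 0.12 (0.00016 and 0.000949). The endocytic receptors Mrc1 and Mrc2, which take up collagen, were higher by 1.08 ± 0.28 and 0.99 ± 0.22 at 24 h (adjusted p = 0.0111 and 0.0048). At 48 h they were higher by 1.05 ± 0.28 and 0.78 ± 0.22 (0.0108 and 0.0149), and there the call of Mrc1 was lost without outside replicate 2 (0.0512) and that of Mrc2 when in-sphere replicate 1 or 2, or outside replicate 1, was left out (0.0525, 0.0542 and 0.0664). At 24 h the inhibitory receptor Lair1 (0.42 ± 0.15, adjusted p = 0.0496) and the platelet receptor Gp6 (-0.51 ± 0.18, adjusted p = 0.0490) lay at the threshold. Gp6 was lost with the replicate block (0.0693) and without any array other than in-sphere replicate 1 of 24 h (0.0502 to 0.192). Lair1 was kept without in-sphere replicate 1 or outside replicate 3 of 24 h or in-sphere replicate 3 of 48 h, and lost without any other array (0.0589 to 0.198). At 48 h the integrin subunit Itga10, with 0 of 3 in-sphere arrays above background, was at least 1.34-fold lower in spheres (adjusted p = 0.00201).

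Of 8 tested genes of collagen breakdown, 2 were higher and 2 lower in spheres at 24 h (25% each). At 48 h 1 was higher and 6 lower (12.5% and 75%), or 3 lower without in-sphere replicate 3 or outside replicate 3 of 48 h. These 6 include Pepd, which splits dipeptides and does not cut collagen itself (-0.54 ± 0.18, adjusted p = 0.0303). Its call was lost without replicate 2 or 3 in spheres (0.0630 and 0.112) or replicate 1 or 3 outside (0.127 and 0.0540) at 48 h. It was also lost with 48 h arrays alone in the fit (0.0588). The collagenase Mmp13 was higher by 1.55 ± 0.28 at 24 h and 1.73 ± 0.28 at 48 h (adjusted p = 0.00146 and 0.000485), while the neutrophil collagenase Mmp8 was lower by -1.39 ± 0.16 and -1.53 ± 0.16 (5.62e-05 and 1.83e-05). Mmp2 and Mmp9, gelatinases that cut type IV and denatured collagen, had opposite signs. Mmp2 was higher at 24 h (1.94 ± 0.27, adjusted p = 0.000226) and differed by 0.33 ± 0.27 at 48 h (0.361), and Mmp9 was lower by -1.61 ± 0.25 and -1.48 ± 0.25 (0.000479 and 0.000585). At 48 h the membrane-bound collagenase Mmp14 (-0.995 ± 0.24, adjusted p = 0.00678), the bone-resorbing cathepsin Ctsk (-0.89 ± 0.27, adjusted p = 0.0196) and the cell-surface gelatinase Fap (-0.70 ± 0.24, adjusted p = 0.0363) were lower too. Leaving out single arrays of 48 h ended the call of Ctsk for replicate 3 in spheres (0.0751) and replicates 1 and 3 outside (0.0528 and 0.0738). The call of Fap ended in the same way for replicates 2 and 3 in spheres (0.0688 and 0.106) and replicates 2 and 3 outside (0.152 and 0.117), with 48 h arrays alone in the fit (0.0791) and with quantile normalisation (0.0766).

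**Figure D3:**
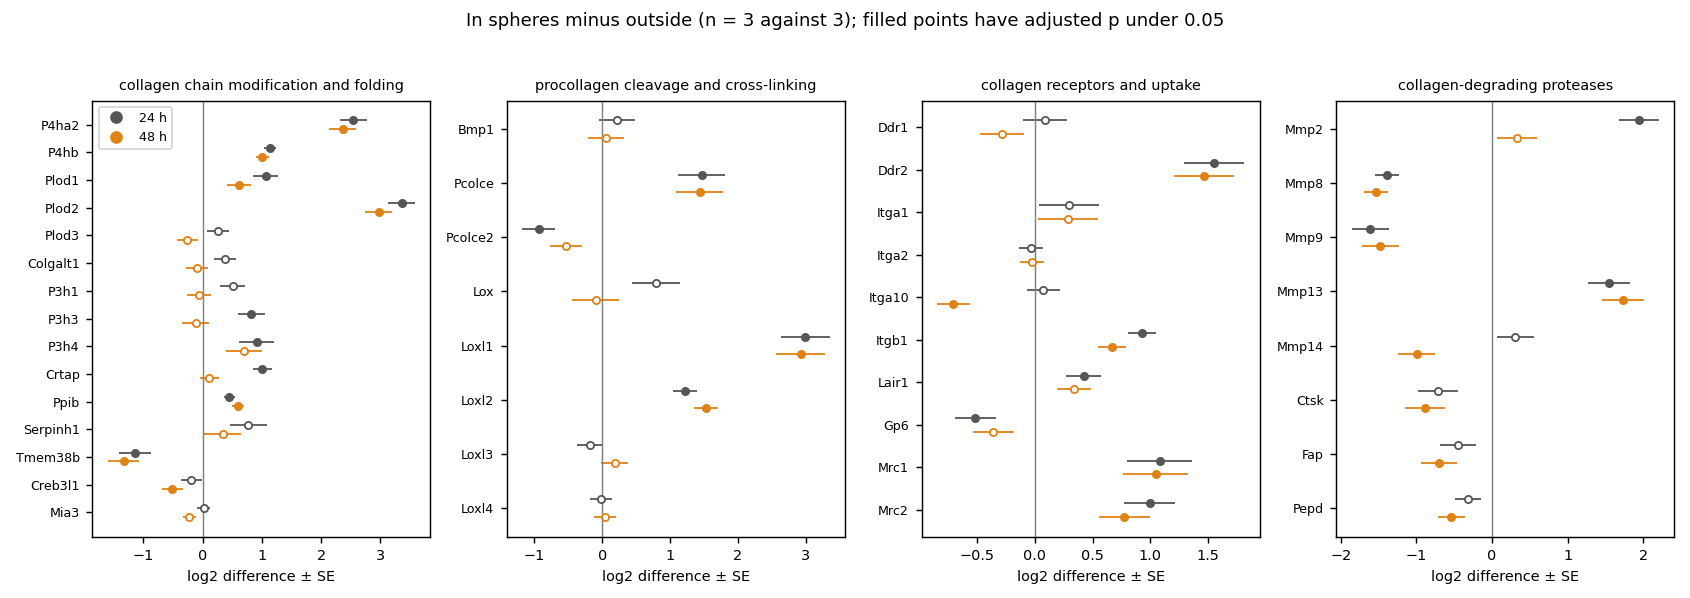
Log2 difference (in spheres minus outside) with its standard error for the tested genes of 4 lists that act on collagen, at 24 h (grey) and 48 h (orange), with 3 arrays against 3. Points filled in colour were called in limma; Plod2, P4ha2 and Loxl1 lie above 2 at both times, and Mmp8 and Mmp9 below -1.

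Markers of other cells were read on these same arrays. Of 11 tested fibroblast and stromal markers, a list with no collagen in it, 7 were higher in spheres and 1 lower at both times (63.6% and 9.09%), with a median difference of 1.87 at 24 h, or 1.70 with bounds, and 1.63 at 48 h. The higher genes were Cxcl12, Dcn, Thy1, Prrx1, Pdgfra, Twist1 and Postn, and the lower one was the smooth muscle actin Acta2. Pdgfrb, Mfap5 and Lum were tested and not called. Pdgfrb differed by 0.13 ± 0.13 and 0.12 ± 0.13, and Mfap5 lay near background. Lum was on the lower side in spheres, by -0.62 ± 0.50 at 24 h (adjusted p = 0.404). At 48 h 0 of 3 in-sphere arrays were above background, against 2.83, 2.85 and 4.36 outside, and Lum was not called (adjusted p = 0.237). Its bound of 1.49-fold lower there rests on outside replicate 3. That replicate was also the highest outside at 24 h (4.70, against 2.65 and 2.78). Dcn, a proteoglycan of fibroblast matrix, was higher by 2.60 ± 0.55 at 24 h and 2.98 ± 0.55 at 48 h (adjusted p = 0.00355 and 0.00108). Cxcl12, a stromal chemokine, was higher by 3.06 ± 0.41 and 2.90 ± 0.41 (0.00018 and 0.000171), and Thy1, a surface protein of fibroblasts and neurons, by 2.36 ± 0.23 and 2.04 ± 0.23 (2.17e-05 and 3.71e-05). Prrx1, a mesenchymal transcription factor, was higher by 1.94 ± 0.33 and 2.31 ± 0.33 (0.000889 and 0.000176). Dcn, Cxcl12, Thy1 and Prrx1 were thus each called higher in spheres at both times. The growth factor receptor Pdgfra, above background on 1 of 3 outside arrays at 24 h and 2 of 3 at 48 h, was higher by 1.90 ± 0.35 and 1.63 ± 0.35 (0.00158 and 0.0031). Twist1, another mesenchymal transcription factor, was at least 3.23-fold higher at 24 h, when 0 of 3 outside arrays were above background (adjusted p = 0.000275), and higher by 1.65 ± 0.26 at 48 h (0.00044). Tcf21 was above background on 0 arrays. Per array, the linear signal of the 13 measured markers summed to 2642, 1683 and 1239 in spheres at 24 h, against 569, 614 and 814 outside, and to 2041, 1901 and 1914 in spheres at 48 h, against 567, 657 and 988 outside. The sum over the 42 collagens was 5292, 3986 and 3027 in spheres at 24 h, against 1027, 1524 and 1461 outside, and 4209, 4200 and 4252 in spheres at 48 h, against 1094, 1489 and 1846 outside. Bright probe sets weigh most in such a sum. Col3a1 was the brightest collagen on every in-sphere array, with mean log2 values of 10.78 at 24 h and 10.82 at 48 h, against 8.14 and 7.53 outside. Next in spheres was Col6a3, with means of 8.95 and 9.29. For both sums replicate 1 was the highest and replicate 3 the lowest in spheres at 24 h, and outside at 48 h replicate 3 was the highest and replicate 1 the lowest. In the other groups the highest replicate differed between the sums, being replicate 3 for collagens and replicate 1 for markers in spheres at 48 h, and replicate 2 for collagens and replicate 3 for markers outside at 24 h. The lowest replicate was the same for both sums there, replicate 2 in spheres at 48 h and replicate 1 outside at 24 h. The part of fibroblast-like or other stromal cells in the collagen differences was not tested, and in bulk RNA the number of cells of a type and the RNA of each cell cannot be told apart.

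Of 13 tested neuroblastoma and neural markers, 2 were higher in spheres and 0 lower at 24 h (15.4% higher, against 15.8% of all genes tested), and 3 were higher and 0 lower at 48 h (23.1%). The list's median difference was 0.02 at 24 h and -0.01 at 48 h. Gap43, a growth-cone protein, was higher by 3.99 ± 0.30 at 24 h and 4.41 ± 0.30 at 48 h (adjusted p = 4.41e-06 and 1.38e-06), and Ncam1 by 0.99 ± 0.20 and 1.64 ± 0.20 (0.00239 and 5.22e-05). At 48 h outside Gap43 was above background on 1 of 3 arrays. The third gene, Elavl4, was above background only on the 3 in-sphere arrays of 48 h, through which it passed the filter, and was at least 1.19-fold higher there (adjusted p = 0.000446). Gata3, Chga, Tubb3, Nefl and Nefm were above background on 0 arrays. The summed signal of the 19 measured markers was 272 to 426 in spheres at 24 h, against 156 to 171 outside, and 285 to 351 in spheres at 48 h, against 133 to 145 outside. Without Gap43 and Ncam1 the sum of the other 17 was 115 to 119 in spheres at 24 h, against 116 to 122 outside, and 115 to 119 in spheres at 48 h, against 106 to 119 outside. The in-sphere excess of the sum thus lay in those 2 genes, and most of the other 17 lay near background, where a sum can show little. Mycn differed by -0.09 ± 0.25 at 24 h and 0.64 ± 0.25 at 48 h without a call (adjusted p = 0.837 and 0.0611). At 48 h it passed with the replicate block (0.0327), the trended robust prior (0.0496) or without in-sphere replicate 1 or 2 of 48 h (0.0415 and 0.0353). The part of tumour cells in the collagen differences was not tested.

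Of 11 tested macrophage markers 1 was higher and 3 lower at 24 h (36.4% called, against 29.4% of all genes tested), and 2 were higher and 4 lower at 48 h (54.5% against 37.5%). Cd14, a co-receptor for lipopolysaccharide, was higher by 0.54 ± 0.13 at 24 h and 1.09 ± 0.13 at 48 h (adjusted p = 0.00715 and 5.11e-05), and the Fc receptor Fcgr1 by 1.19 ± 0.40 at 48 h (0.0338). The myeloid transcription factor Cebpa was lower by -1.47 ± 0.19 and -2.31 ± 0.19 (0.000142 and 4.02e-06), and Mertk, a receptor for apoptotic cells, by -0.91 ± 0.15 and -1.25 ± 0.15 (0.000887 and 6.3e-05). Adgre1, a macrophage surface receptor, was lower at 24 h (-0.43 ± 0.13, adjusted p = 0.0221), and at 48 h the lysosomal protein Cd68 (-0.75 ± 0.13, adjusted p = 0.000691) and the transcription factor Spi1 (-0.66 ± 0.15, adjusted p = 0.00419) were lower. The summed signal of the list was 18166 to 21841 in spheres at 24 h, against 17950 to 21086 outside, and 19252 to 20758 in spheres at 48 h, against 19068 to 20963 outside, ranges that overlap at both times. Leaving out in-sphere replicate 3 of 24 h gave 6 lower markers at 24 h, and leaving out outside replicate 3 gave 2 higher. The call of Fcgr1 was lost with the mean over probe sets (0.0663), with the trended robust prior (0.0619) and without replicate 2 or 3 in spheres (0.0912 and 0.0858) or replicate 1 or 2 outside (0.079 and 0.131). That of Adgre1 was lost with 24 h arrays alone in the fit (0.0551) and without replicate 1 in spheres (0.082) or replicate 1 or 3 outside (0.079 and 0.063). At 48 h Adgre1 missed the threshold (0.0536) and passed with the replicate block (0.0453), array weights (0.00333) or the stricter filter (0.0489). It passed there too with the mean over probe sets (0.0442), the trended robust prior (0.0164) or quantile normalisation (0.0376). The same held without in-sphere replicate 1 or 3 of 24 h (0.0306 and 0.0435) or in-sphere replicate 3 of 48 h (0.0422). At 48 h 1 was higher when in-sphere replicate 2 or 3, or outside replicate 1, was left out. Endothelial markers were called lower in 2 of 6 tested genes at 24 h (33.3%) and 1 at 48 h (16.7%), with 0 higher, and Tek was above background on 0 arrays. Vwf, the blood clotting factor of endothelium, was lower by -2.06 ± 0.29 and -2.19 ± 0.29 (0.000287 and 0.00012), and Emcn, an endothelial sialomucin, by -1.38 ± 0.40 at 24 h (0.0219). At 48 h the sign of Emcn was reversed without a call (0.22 ± 0.40, 0.704). Kdr was on the higher side by 0.47 ± 0.28 at both times, not called (0.246 and 0.223). It passed at 48 h with array weights (0.00345) and without in-sphere replicate 3 of 48 h (0.0263). Esam was on the lower side at both times, and Pecam1 and Cdh5 changed sign, none of them called. The lower count at 24 h was 1, Emcn being lost (0.0555 to 0.0951), when in-sphere replicate 1 or 3, or outside replicate 1 or 2, was left out. Of 5 tested osteoblast and marrow stroma markers 1 was higher at 24 h (20%) and 2 were lower at 48 h (40%). Phex, an osteoblast and osteocyte endopeptidase, was at least 2.72-fold higher in spheres at 24 h (adjusted p = 0.00429), when 0 of 3 outside arrays were above background. At 48 h its sign was reversed and it was not called (-0.91 ± 0.39, adjusted p = 0.0843). It was called lower there with the replicate block (0.0252) and without outside replicate 3 of 48 h (0.0102). The bone protein Bglap (-1.13 ± 0.17, adjusted p = 0.00028) and the osteoblast transcription factor Sp7 (-1.03 ± 0.15, adjusted p = 0.000241) were lower at 48 h. Of 3 tested Schwann and glial markers 0 were called at either time.

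**Figure D4:**
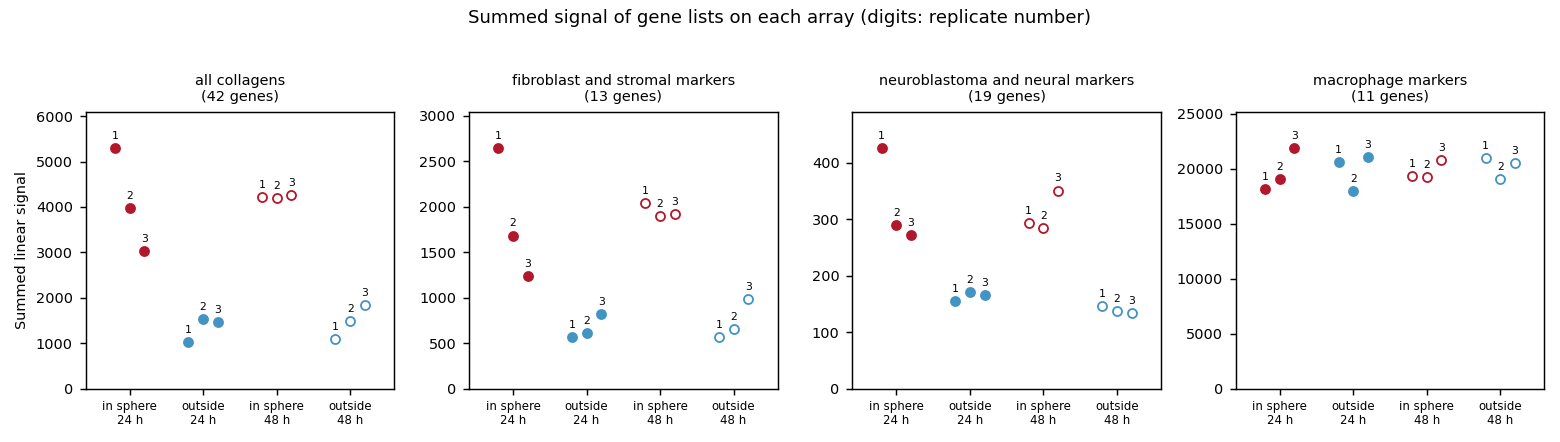
Summed linear signal per array of all 42 collagens, of the 13 fibroblast and stromal, 19 neuroblastoma and neural, and 11 macrophage markers, with in-sphere arrays in red, outside arrays in blue, 24 h filled and 48 h open, and digits for the replicate number. The collagen, fibroblast and neuroblastoma sums are higher on every in-sphere array than on the outside arrays of the same time, and the macrophage sums overlap. The excess of the neuroblastoma sum lies in Gap43 and Ncam1, most of the other members being near background. Col3a1 weighs most in the collagen sums of the in-sphere arrays.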

How the data were processed

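The authors deposited 1 log2 value for each probe set and array. Per the submitters' processing notes, RMA and version 1.1 of the Affymetrix Expression Console were used, and the base of the logarithm is read from the range of the values. RMA normalises the arrays together, removes differences in total RNA per cell and compresses differences of dim probe sets. The table held 45141 probe sets, of which 28898 had 1 gene symbol, 551 several and 15692 none. Precision is limited by the number of arrays.

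A gene was tested if its probe set exceeded 2.77 on at least 3 arrays. A model with 1 mean per group was fitted to all 12 arrays with limma 3.58.1 under R 4.3.3 (8 residual and 4.09 prior degrees of freedom) and was tested on simulated data. Contrasts compared in-sphere with outside cells at each time, 48 h with 24 h inside and outside spheres, and the 2 in-sphere differences with each other. The threshold for a call was an adjusted p of 0.05 (Benjamini-Hochberg, over 12488 genes).

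The collagens, their classes and all gene lists were chosen with earlier results of these data known. Every collagen is named. Values per array were to be given for called collagens up to 16, and differences for up to 5 called members of each gene list per direction, those with the largest differences. Values of a few uncalled collagens and of a few further list genes were added after their values were seen. The lists covered collagen modification, cleavage and cross-linking, receptors, proteases, and markers of fibroblasts, osteoblasts, neuroblastoma, Schwann cells, endothelium and macrophages.

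Same-numbered replicates were treated as paired in an alternative, because the series' design text makes each replicate a separate experiment and takes outside cells from those cultures. Deviations of same-numbered arrays from their group means correlated at 0.419 to 0.473 between outside groups, and at 0.0215 to 0.120 between in-sphere and outside cells at 24 h and 0.0417 to 0.117 at 48 h. Other alternatives were array weights, no filter or a stricter one, the mean over probe sets, a trended robust prior, only the groups compared, median centring, each array left out and, added after seeing the data, quantile normalisation over all arrays.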

Additional observations from a re-analysis of the deposited data

How the results depend on the processing

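All 12 collagens called at 24 h kept their direction under each of 21 alternatives, and 10 of them remained called under all 21. Of the 17 called at 48 h, 14 were tested under all 21, and 11 of these remained called under all. Col13a1 and Col26a1 were tested under 20 and Col14a1 under 19, since they dropped out under the stricter filter and Col14a1 also with the mean over probe sets. All 17 kept their direction in every alternative in which they were tested. With the trended robust prior, or with only the groups compared in the fit, 0 collagens were lower at 24 h. The filter at the 50th percentile left 2 lower at 48 h. With the replicate block 1 collagen was higher in spheres at 48 h than at 24 h (Col1a2) and 1 had a larger in-sphere difference at 48 h (Col14a1, above background in 1 group only); the block changed no other collagen call. Within spheres 1 collagen was also higher at 48 h with no filter on low values, with the mean over probe sets, the trended robust prior, median centring or quantile normalization, and 2 with array weights. Outside, 0 were higher at 48 h with only the groups compared in the fit. Where the cause is not the alternative's own construction, it was not tested. Leaving out 1 array at a time gave 10 to 12 higher and 0 to 1 lower at 24 h, 12 to 13 higher and 2 to 4 lower at 48 h, 0 to 1 higher between times in spheres and 0 to 1 outside. Restricting the fit to the groups compared was not possible for the interaction, which uses all 4. Genes near the background level of 2.77 have only bounds, and 13 collagens could not be tested at this signal.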
